A study of Mus musculus with 4 samples.

Results

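The neurons described here are type I spiral ganglion neurons of the mouse cochlea, ordered by how much immediate early gene (IEG) transcript each cell held. For every cell that the authors' deposited annotation calls type I, the unique molecular identifiers (UMIs, each a captured molecule) of Fos, Fosb, Junb, Egr1 and Ier2 were summed and divided by the UMIs of the whole cell. Members were chosen by this measured share: the 25% of cells with the highest value, called IEG-high below, and the 25% with the lowest, called IEG-low, were taken within every mouse and every annotated subtype (IA, IB and IC). This gave 1522 IEG-high and 1522 IEG-low cells, out of 6113 type I cells and 6713 cells in all. The other 3069 type I cells are called the middle cells. All cells came from 4 wild-type CBA/CaJ males aged 9 weeks, for which the labels name no treatment, so both sides of every comparison share the same animals and the same libraries. The cochlear tissue of each mouse was digested with collagenase IV and papain, 30 min each at 37 °C, and cells were captured on the 10x Genomics v2 platform 2.5 h after death. The animals give 4 replicates, and cells were never counted as replicates.

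Immediate early genes are switched on within minutes of a stimulus without new protein synthesis. Calcium entry, growth factors and cell stress reach them through MAP kinases, CREB and serum response factor, and many of their products are transcription factors: Fos and Jun family proteins pair to form AP-1, and Egr1 is a zinc finger factor. In neurons they are widely used as a record of recent activity, and tissue digestion can switch on the same genes. Type I neurons are the myelinated afferents that carry signals from inner hair cells to the brainstem.

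The 5 genes defined the order of the cells, so their levels between the sides are a description without a test. As UMIs of the gene relative to all UMIs of the sum (in the unit CPM), Fos stood at 252, 204, 195 and 202 in IEG-low cells of mice 1 to 4 and at 1053, 1126, 1010 and 1108 in IEG-high cells. Fos encodes the AP-1 subunit that gave 51.2% of all UMIs of the 5 genes in type I cells, so it weighed most in the order. From IEG-low to IEG-high cells, Junb, another AP-1 subunit, went from 119 ± 19.0 to 399 ± 37.5 CPM (mean ± SD, n = 4 mice), Egr1 from 67.4 ± 22.3 to 235 ± 19.8, Ier2, a nuclear immediate early protein, from 56.2 ± 0.83 to 148 ± 19.4, and Fosb from 32.4 ± 6.93 to 106 ± 17.0. Across the 4 groups of cells of rising share, each gene rose step by step in all 4 mice, as the plot of the 5 ordering genes shows. The share had no gap between the groups: over the 12 combinations of mouse and subtype, the last IEG-low cell lay between 528 and 792 CPM with the next cell above it at 529 to 795, and the last IEG-high cell lay at 1128 to 1495 with the next cell below at 1128 to 1481. Only 55 cells held no UMI of the 5 genes, and the median cell of a combination held 8 to 19. The variance of the share between cells of a combination was 2.72 to 7.59 times the variance that counting alone gives.

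**Figure D1:**
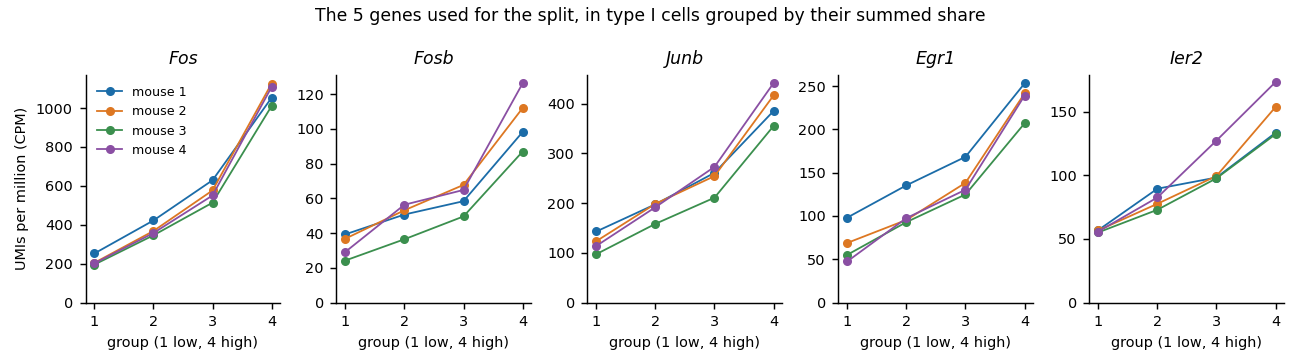
Level of the 5 genes that order the cells, in CPM, in 4 groups of type I cells of rising summed share (1 is IEG-low, 4 is IEG-high), with 1 line per mouse. Fos lies between 1010 and 1126 CPM in IEG-high and between 195 and 252 CPM in IEG-low cells; the order follows from how the groups were made.

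Deposited labels also allow the summed level of the 5 genes to be read across populations, which the choice of cells did not use. Type I neurons held 1111 ± 82.6 CPM (SD, n = 4 mice), with a range of 991 to 1177 CPM. Type II neurons, the thin unmyelinated afferents of outer hair cells, held 2259 ± 426 CPM (95 cells), and the cells annotated as putative neurons 2789 ± 391 CPM (505 cells). Both lay above type I in 4 of 4 mice without overlap of the ranges, but an exact two-sided sign-flip permutation test over 4 mice cannot give a p below 0.125. Within type I, IA held 1059 ± 100, IB 1128 ± 84.6 and IC 1150 ± 67.6 CPM. IA was the lowest in 4 of 4 mice, while IB and IC changed places in mouse 2. IEG-high and IEG-low cells were taken within each subtype.

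Sequence upstream of the genes is shown because the immediate early genes are classic targets of CREB, which binds the cyclic AMP response element TGACGTCA, and of serum response factor, which binds the CArG box. The 250 bases before the RefSeq start (GRCm38.p6, 5′ to 3′ on the strand of the gene) are given for the AP-1 genes that order the cells, Fos (chr12:85473640-85473889, plus), Fosb (chr7:19310046-19310295, minus) and Junb (chr8:84978749-84978998, minus), and for Btg2 (chr1:134079156-134079405, minus) and Zfp36 (chr7:28379229-28379478, minus), immediate early genes outside the order that are described further on. Capitals mark TGACG or its reverse complement CGTCA, the core of the cyclic AMP response element, and CArG matches.

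Fos: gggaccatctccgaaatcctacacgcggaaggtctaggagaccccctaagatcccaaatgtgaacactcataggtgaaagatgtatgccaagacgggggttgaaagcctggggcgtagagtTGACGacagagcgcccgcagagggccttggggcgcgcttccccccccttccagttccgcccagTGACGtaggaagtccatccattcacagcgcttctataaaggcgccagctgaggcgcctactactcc
Fosb: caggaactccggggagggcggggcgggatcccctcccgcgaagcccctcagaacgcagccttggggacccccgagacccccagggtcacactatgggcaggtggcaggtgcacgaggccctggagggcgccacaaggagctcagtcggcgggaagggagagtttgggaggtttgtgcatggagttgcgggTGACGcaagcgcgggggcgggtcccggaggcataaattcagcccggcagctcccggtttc
Junb: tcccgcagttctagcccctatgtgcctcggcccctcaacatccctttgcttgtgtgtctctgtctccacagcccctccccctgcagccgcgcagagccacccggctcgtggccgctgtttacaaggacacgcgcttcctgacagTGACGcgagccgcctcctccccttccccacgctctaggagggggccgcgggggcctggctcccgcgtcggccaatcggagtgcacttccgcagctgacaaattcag
Btg2: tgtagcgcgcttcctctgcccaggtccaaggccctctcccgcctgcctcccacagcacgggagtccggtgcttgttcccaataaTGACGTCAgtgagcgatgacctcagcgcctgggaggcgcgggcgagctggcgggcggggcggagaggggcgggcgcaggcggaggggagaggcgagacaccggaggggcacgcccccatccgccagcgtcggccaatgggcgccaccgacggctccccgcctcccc
Zfp36: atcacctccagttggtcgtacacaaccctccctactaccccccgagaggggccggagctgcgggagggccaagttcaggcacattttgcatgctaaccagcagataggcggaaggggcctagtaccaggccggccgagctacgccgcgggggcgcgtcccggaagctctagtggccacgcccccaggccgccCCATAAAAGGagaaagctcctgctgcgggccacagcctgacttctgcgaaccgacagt

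The core was found in each of the 3 ordering genes with a promoter entry, with 2 copies in Fos, and Btg2 holds the full element TGACGTCA. Zfp36 holds a CArG match instead. Btg2 and Zfp36 are examples with a match. Jun, Jund, Klf6, Gadd45b, Gadd45g and Dusp6, also described further on, hold no core and no CArG match in the same window. Searched on both strands, in the upstream bases of 78 genes of the 5 immediate early lists used below, the core occurred in 52.6%, against 31.0% of the tested genes with an entry and 19.8% of all 27025 genes with an entry, and each full element contains the core. The full element occurred in 12.8%, 3.20% and 1.77%, and the CArG box in 3.85% (only 3 of the 78 genes), 1.44% and 1.62%. A match describes letters in the window and is no evidence of binding.

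Whether the 5 genes moved together in single cells was asked with splits that did not use the gene in question. For each gene the sides were rebuilt from the other 4, and the left-out gene was tested on UMIs summed per mouse and side. Fos stood at 455, 421, 365 and 384 CPM on the low side of mice 1 to 4 and at 849, 902, 801 and 886 CPM on the high side. Every value of the high side lay above every value of the low side, with a log2 difference of 1.07 ± 0.03 (edgeR estimate ± SE, n = 4 mice; edgeR's quasi-likelihood test, Benjamini-Hochberg adjusted p = 5.48e-138, two-sided). Egr1 stood at 137, 100, 84.1 and 79.0 CPM against 233, 220, 183 and 207, a log2 difference of 1.06 ± 0.04, and Junb at 198, 201, 162 and 176 against 324, 364, 298 and 376, a difference of 0.86 ± 0.03. Fosb differed by 0.96 ± 0.06 and Ier2 by 0.72 ± 0.05, so each of the 5 genes was higher where the other 4 were high, in 4 of 4 mice and without overlap. Such splits called 5.29% of all other genes when Fos was left out, and 11.5%, 11.8%, 11.7% and 11.9% when Fosb, Junb, Egr1 and Ier2 were left out. The small p-values rest on a spread shared across genes and describe these 4 animals.

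**Figure D2:**
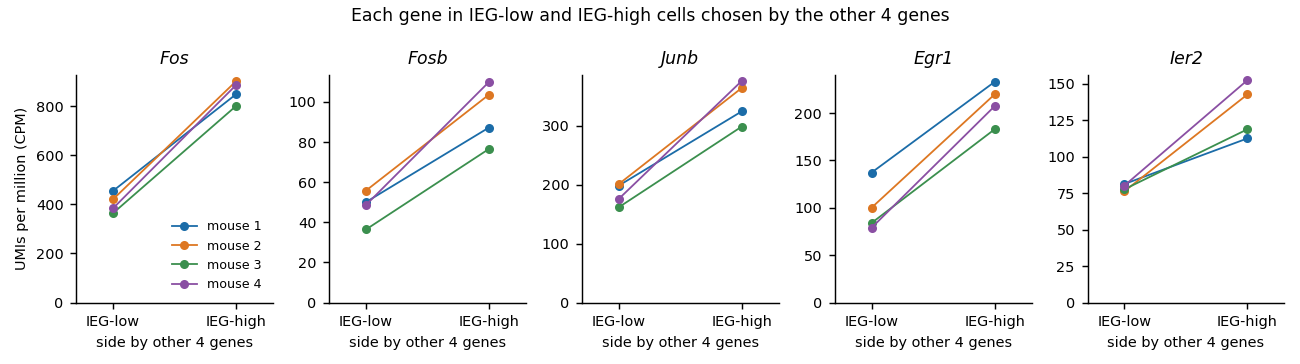
Level of each gene in CPM in IEG-low and IEG-high type I cells when these were chosen by the other 4 genes, with 1 line per mouse. All 20 lines rise; Fos goes from 365 to 455 CPM up to 801 to 902 CPM.

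Next, all other genes were compared between IEG-high and IEG-low cells chosen by the 5 genes together. Sums per mouse held 3152843 to 5517023 UMIs on the low side and 3461510 to 6713822 on the high side. Of 12474 genes tested, 1458 passed an adjusted p of 0.05 (11.7%), with 864 higher in IEG-high cells (6.93% of those tested) and 594 lower (4.76%). Most differences were small, with 31 genes past 2-fold, and 1353 of the 1458 went the same way in all 4 mice. Several properties of the cells moved with the sides, and they touch every comparison that follows. IEG-high cells were deeper, with median UMIs per cell of 14700, 11798, 12572.5 and 8906 in IEG-low cells of mice 1 to 4 against 18051, 14047, 14685 and 9841. Summed markers of satellite glia, which wrap the cell bodies, were at 1419 to 1684 CPM against 1782 to 2160 CPM, and those of myelinating Schwann cells at 2788 to 3177 against 3963 to 4322 CPM. Both sums were higher in 4 of 4 mice, and no defining marker of either list was at 0. Pan-neuronal markers made up 12688 to 13367 CPM against 12284 to 13272 CPM, so both sides carry the neuronal label's transcripts. Among type I cells, 48 carried a barcode also seen in another library, and 1484 genes were called without them. Splits within strata of equal depth called 1267 genes, and splits without the 25% of type I cells richest in glial markers called 1211.

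Immediate early genes outside the ordering set, in 5 lists holding 101 symbols, were read against this background. Of 89 members tested, 43 were higher and 0 lower in IEG-high cells, beside 6.93% higher among all genes, and their median log2 difference was 0.33 against -0.0043 over all genes. In 33 of the 89 the CPM of the 4 mice were higher without overlapping, beside 5.56% of all genes, and 8.39% of all genes did not overlap in either direction. Without the glia-rich cells, 36 of 84 were higher, with a median of 0.30. With depth strata it was 42 of 88, and with DESeq2 it was 26 of 89, with 0 lower. DESeq2 gave no adjusted p for some genes, and in all its counts here and below these are among the genes not called. At an unadjusted p of 0.05 edgeR had 53 higher and 3 lower.

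Among other AP-1 and ATF members, 5 of 12 tested were higher and 0 lower, with a median of 0.15. Jun, the usual partner of Fos, stood at 350, 374, 338 and 350 CPM in IEG-low cells of mice 1 to 4 and at 565, 661, 597 and 618 CPM in IEG-high cells. The ranges were far apart and the log2 difference was 0.78 ± 0.03 (edgeR adjusted p = 4.9e-73). Jund, a more constant AP-1 subunit, went from 420, 430, 369 and 381 to 550, 568, 499 and 520 CPM, a difference of 0.41 ± 0.03. Atf3, a stress-induced factor of the same family, differed by 0.50 ± 0.06, although mouse 1 moved little, from 75.5 to 80.9 CPM, while mouse 4 went from 64.4 to 120 CPM. Mafk (0.47 ± 0.15) and Ddit3 (0.18 ± 0.05) also passed, and both lost the call without mouse 2 (adjusted p = 0.276 and 0.177) and without mouse 4 (0.0943 and 0.0651). Not past the threshold were Fosl1 (0.07 ± 0.32) and Fosl2 (0.12 ± 0.17), Fos relatives at 1.59 to 13.0 CPM over all sums, as well as Atf4 (0.04 ± 0.04), the effector of the integrated stress response, at 159 to 173 CPM in IEG-low cells.

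The EGR, NR4A and KLF factors had the highest median of the 5 lists, 0.65, with 7 of 10 tested members higher and 0 lower. Egr2 (chromosome 10, 67535475 to 67542188, plus strand, GRCm38), a zinc finger factor that also drives the myelin programme of Schwann cells, stood at 46.8, 40.8, 34.2 and 32.0 CPM in IEG-low cells and 92.2, 93.7, 82.8 and 74.0 CPM in IEG-high cells. No mouse overlapped, and the log2 difference was 1.15 ± 0.06. It is a member of the Schwann cell marker list too, so its rise cannot be told apart from the rise of that list. Klf6 differed by 1.01 ± 0.07 and Klf4 by 0.86 ± 0.09, both Krüppel-like factors that respond to stimuli and injury. Klf2 (0.50 ± 0.06), Klf9 (0.28 ± 0.07) and the orphan nuclear receptor Nr4a1 (0.45 ± 0.07) were higher as well. Without mouse 2, Klf9 was at 0.21 (adjusted p = 0.104). Klf5 passed at 1.01 ± 0.33 on 26 and 62 UMIs and lost the call when any mouse was left out (adjusted p 0.0574 to 0.115). Nr4a2 (0.43 ± 0.21) and Nr4a3 (0.80 ± 0.32) did not pass, and Egr3 and Egr4 had 4 and 3 UMIs in IEG-low cells and 9 and 1 in the highest, too few to be tested.

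Among the further immediate early genes, 22 of 34 tested were higher and 0 lower, with a median of 0.40. Gadd45b, a stress sensor linked to DNA demethylation, stood at 28.9, 47.7, 34.6 and 53.6 CPM in IEG-low cells and at 72.7, 101, 69.1 and 97.6 CPM in IEG-high cells, a log2 difference of 1.05 ± 0.06. Its relative Gadd45g differed by 0.67 ± 0.04 and Gadd45a by 0.17 ± 0.09, which did not pass. Btg2, an antiproliferative gene of the set whose upstream bases hold TGACGTCA, went from 81.9, 67.4, 55.1 and 67.2 to 129, 147, 112 and 139 CPM, a difference of 0.95 ± 0.05. Gadd45b, Gadd45g and Btg2 kept IEG-low and IEG-high cells apart in all mice. The RNA-binding proteins Zfp36 (0.82 ± 0.07) and Zfp36l1 (0.76 ± 0.07), which shorten the life of AU-rich messages, the matrix protein gene Cyr61 (0.75 ± 0.06), and the inhibitors of DNA binding Id1 (0.60 ± 0.06), Id2 (0.45 ± 0.04) and Id3 (0.40 ± 0.03) were higher too. Ctgf, a relative of Cyr61, was at 0.01 ± 0.12, Myc at -0.04 ± 0.17 and the clock genes Per1 and Per2 at 0.23 ± 0.11 and -0.44 ± 0.20, none of them past the threshold.

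Genes that damp MAP kinase signalling were higher in 6 of 17 tested members, with 0 lower and a median of 0.30. Dusp1, a nuclear phosphatase of MAP kinases, stood at 85.2, 77.8, 82.0 and 92.0 CPM against 127, 142, 148 and 157, without overlap and with a log2 difference of 0.77 ± 0.05. Dusp6, the cytoplasmic ERK phosphatase, differed by 0.96 ± 0.11, Rasl11b by 0.74 ± 0.16, Errfi1, an inhibitor of EGF receptor signalling, by 0.40 ± 0.08, Spry2 by 0.38 ± 0.08 and Dusp5 by 0.42 ± 0.12. Without mouse 2, Dusp5 did not pass (0.29, adjusted p = 0.267), and Errfi1 was at -0.0094 in the middle cells. Dusp8 (0.07 ± 0.07) and Spred2 (0.15 ± 0.18) did not pass, and Spry4 was at -0.65 ± 0.41 on low levels.

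Among genes used as readouts of neuronal activity, 3 of 16 tested were higher and 0 lower, beside 6.93% higher among all genes. The median was 0.07. Without the glia-rich cells 3 of 15 were higher, with a median of 0.0012. Npas4, a factor induced by calcium entry in neurons, had the largest difference of the named genes between the sides, 1.76 ± 0.36 on the log2 scale, but on only 17 UMIs in IEG-low and 68 in IEG-high cells. It stood at 1.18, 1.09, 0.81 and 0.63 CPM against 1.21, 3.28, 3.28 and 6.36, so mouse 1 was almost level while the other mice rose. Within subtypes its UMIs went from 5 to 55 in IC, a difference of 3.23 ± 0.54 (edgeR adjusted p = 2.41e-06). It did not pass in IA (-0.97 ± 1.01) or in IB, with 7 and 10 UMIs (0.34 ± 0.75), and the difference between subtypes had an edgeR adjusted p of 0.127. Arc, a synaptic protein whose message follows activity, went from 6.12, 6.16, 5.09 and 6.98 to 10.9, 10.9, 8.57 and 11.8 CPM, a difference of 0.78 ± 0.17 with no overlap. Cdkn1a, a cell cycle inhibitor, differed by 0.65 ± 0.06. Other members did not pass: Nrn1 at 200 to 235 CPM in IEG-low cells (-0.07 ± 0.03), Rheb (-0.01 ± 0.03), Homer1 (-0.11 ± 0.08) and Syt4 (0.09 ± 0.04). Later activity genes such as Bdnf (9 and 15 UMIs in IEG-low and IEG-high cells), Nptx2 (9 and 12), Vgf (3 and 4) and Scg2 (10 and 10) were too sparse to be tested.

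**Figure D3:**
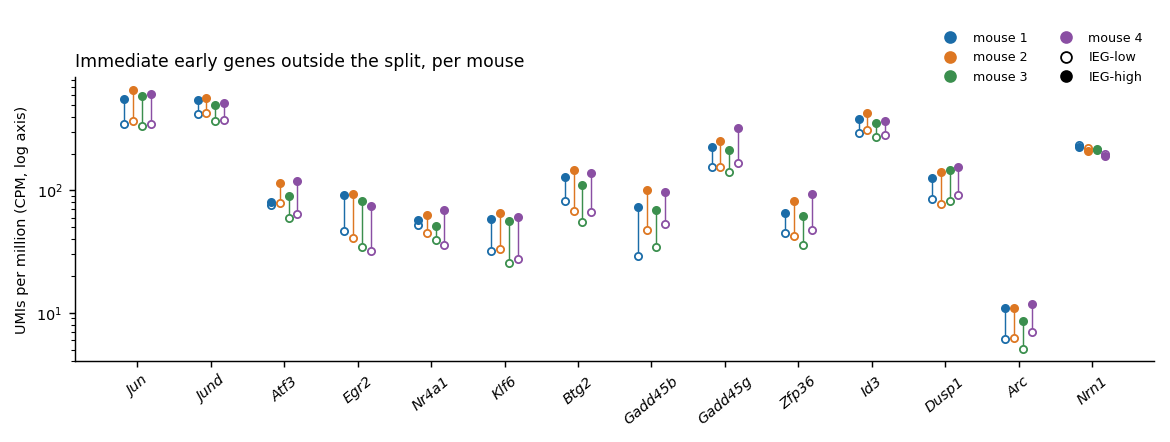
Level in CPM (log axis) of 14 genes of the 5 immediate early lists in IEG-low (open) and IEG-high (filled) type I cells, joined per mouse. The genes were chosen for display, and all but Nrn1 passed the test, whereas 43 of the 89 tested list members did. Jun, Egr2, Btg2, Gadd45b and Dusp1 lie higher on the high side in all 4 mice, while Nrn1 lies slightly lower, at a difference that did not pass the test.

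The middle cells gave the same comparison in cells that the split above leaves out. This comparison was added after the data had been seen. There the middle cells above the median share were set against those below it, a smaller contrast in the 5 genes. It called 114 of 12610 genes (0.904%), with 83 higher (0.658%). All 102 genes called in both comparisons went the same way, and of 1450 called genes with a middle value 1209 (83.4%) had the same sign, beside 58.4% of all 12363 genes tested in both. Of 87 immediate early members tested there, 60 were above 0, with a median of 0.06. Of the 42 already called between IEG-high and IEG-low cells, 36 had the same sign and 13 were called, among them Egr2 (0.35), Gadd45b (0.28), Btg2 (0.24), Jun (0.20) and Dusp1 (0.18) as log2 differences. For each ordering gene the middle cells were also taken anew from the split by the other 4 genes, so they are not the same cells. There Fos differed by 0.28, Egr1 by 0.24 and Junb by 0.22, whereas Fosb at 0.15 (edgeR adjusted p = 0.381) and Ier2 at 0.11 (adjusted p = 0.536) did not pass.

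Over all genes with at least 100 UMIs in the higher side, the 12 largest called rises were led by Pdk4, a mitochondrial kinase that restrains the use of pyruvate. Pdk4 stood at 2.35, 3.26, 3.26 and 2.54 CPM in IEG-low cells and 6.84, 7.45, 7.11 and 9.82 in IEG-high cells, a log2 difference of 1.37 ± 0.22. All 4 mice rose without overlap, on 52 and 157 UMIs. Angptl4 (1.03 ± 0.13) and Acot1 (1.06 ± 0.14) are, like Pdk4, known for roles in fatty acid metabolism. Socs3, the feedback inhibitor of cytokine signalling through STAT3, went from 46.4, 39.3, 32.2 and 46.9 to 91.0, 92.5, 68.9 and 106 CPM, a difference of 1.11 ± 0.06 with no overlap. The Notch feedback gene Nrarp differed by 1.11 ± 0.14, the ephrin Efna5 by 1.10 ± 0.20, the histone gene Hist1h2bc by 1.00 ± 0.06, and Ednrb, the endothelin B receptor and a member of the satellite glia list, by 1.23 ± 0.16. Msx2 (1.15 ± 0.26) completes the 12 together with Egr2, Gadd45b and Klf6, and it went the other way in the middle cells (-0.20).

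The 12 largest falls were smaller. Ttn stood at 27.1, 24.8, 27.3 and 37.4 CPM in IEG-low and at 15.3, 15.6, 19.0 and 23.7 CPM in IEG-high cells, a log2 difference of -0.67 ± 0.10 without overlap. Ttn is known for the giant muscle protein titin and is here a member of the IB marker list. Srrm4, a splicing factor of neuronal microexons, went from 51.5 to 58.4 CPM down to 35.7 to 41.9 CPM, a difference of -0.52 ± 0.07. The potassium channel gene Kcnd2 (-0.63 ± 0.18) and its auxiliary subunit gene Kcnip4 (-0.55 ± 0.10), the cadherin Cdh18 (-0.62 ± 0.21), the guidance cue Sema3a (-0.55 ± 0.16) and the serotonin receptor Htr7 (-0.51 ± 0.18) were lower as well. Kcnip4 was almost level in mouse 4 (-0.007), and by subtype it passed only within IA (-0.85 ± 0.16). Kcnd2 was lower within IB (-0.83 ± 0.25) and did not pass in IC (-0.44 ± 0.28). In IA it had 4 and 9 UMIs (0.73 ± 0.78, not past the threshold). Tbc1d32 (-0.68 ± 0.20), Lhx1 (-0.58 ± 0.20), Zfp626 (-0.54 ± 0.19), Arv1 (-0.50 ± 0.17) and Sfi1 (-0.50 ± 0.09) complete the set. Several calls were lost when 1 mouse was left out: Htr7 without any of the 4 (adjusted p 0.064 to 0.277), Cdh18 (0.0944 to 0.189) and Zfp626 (0.113 to 0.202) without mouse 1, 3 or 4, Lhx1 (0.0737 to 0.199) without mouse 1, 2 or 4, and Arv1 (0.0814 to 0.253) without mouse 2, 3 or 4. Kcnd2 lost it without mouse 1 or 2 (0.0828 and 0.122), Tbc1d32 without mouse 1 (0.0868) and Sema3a without mouse 3 (0.0554). Kcnd2 (0.0049), Tbc1d32 (0.05) and Sfi1 (0.05) changed sign in the middle cells, and Lhx1 did (0.19) with cells thinned to equal depth.

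Stress and signalling genes moved unevenly. Of 27 heat shock and chaperone genes, 11 were higher and 1 lower, with a median of 0.08, beside 6.93% higher and 4.76% lower among all genes tested. Hspa1a, the inducible HSP70, stood at 143, 195, 167 and 178 CPM against 206, 358, 309 and 325, a log2 difference of 0.80 ± 0.04, and mouse 1 rose least. Hspa1b, its near-identical copy, differed by 0.79 ± 0.10, and reads of the pair can be split between them in an uncertain way. The small heat shock protein gene Cryab (0.49 ± 0.02) and the HSP70 partner Dnajb1 (0.46 ± 0.04) were higher too. Of 16 inflammatory and NF-kB genes, 6 were higher and 0 lower, among them Nfkbiz (0.80 ± 0.15) and the NF-kB inhibitor gene Nfkbia (0.53 ± 0.07). In the integrated stress and unfolded protein list 1 of 17 was higher, Ppp1r15a (0.42 ± 0.06), a phosphatase subunit that is itself an immediate early gene, and 0 were lower, a share near that of all genes. Of 16 axonal injury genes, 5 were higher and 3 lower, including Jun and Atf3 already given, Sox4 (0.53 ± 0.07) and Tubb2b (0.74 ± 0.15).

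Upstream of the immediate early genes, the CREB and kinase list had 0 of 26 members higher and 1 lower, the S6 kinase gene Rps6ka3 (-0.26 ± 0.04). DESeq2 gave the same counts, and at an unadjusted p of 0.05 edgeR had 2 higher. Of 18 tested serum response factor and actin genes, 7 were higher and 0 lower. Actb, cytoplasmic actin, differed by 0.20 ± 0.02, its relative Actg1 by 0.17 ± 0.02, and the smooth muscle genes Myl9 and Tagln by 0.38 ± 0.08 and 0.88 ± 0.24. Tagln was at -0.36 in the middle cells and lost the call without mouse 1 (adjusted p = 0.0603) or mouse 3 (0.094). Without pairing by mouse, 0 of the 18 passed by edgeR, and DESeq2 called 2.

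Channel and synapse genes tended to be lower in IEG-high cells, by small amounts, beside 4.76% lower among all genes. Of 11 sodium and HCN channel genes, 6 were lower and 0 higher, with a median of -0.20. Scn4b, a beta subunit of nodal sodium channels, stood at 348, 315, 324 and 319 CPM in IEG-low cells and 298, 254, 285 and 277 in IEG-high cells, without overlap and with a log2 difference of -0.24 ± 0.03. The nodal pore subunit Scn8a differed by -0.25 ± 0.03 and Scn1a by -0.22 ± 0.04. Voltage-gated potassium channel genes had 8 of 20 members lower and 2 higher, among them Kcna6 (0.41 ± 0.13), which lost the call without mouse 1, 3 or 4 (adjusted p 0.0666 to 0.235) and was at -0.07 in the middle cells. Glutamate receptor genes had 4 of 9 lower and 0 higher, with the obligate NMDA subunit Grin1 at -0.22 ± 0.04 and the AMPA subunit Gria2 at -0.21 ± 0.04. With depth strata 1 of the 9 was lower, and with strata of mitochondrial share none was by edgeR. Synaptic vesicle and release genes had 8 of 28 lower and 1 higher, including Sv2a (-0.26 ± 0.03), the fast calcium sensor Syt2 (-0.18 ± 0.03) and the vesicular glutamate transporter Slc17a6 (-0.26 ± 0.04). Calcium channel genes had 2 of 12 lower and 0 higher. At an unadjusted p of 0.05, edgeR had 7 sodium and HCN, 4 glutamate receptor and 4 calcium channel genes lower and none higher, and DESeq2 called 4, 1 and 0 of them lower and none higher.

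Neuronal identity markers showed the same tendency. Of 15 pan-neuronal and spiral ganglion markers 7 were lower and 2 higher, with Elavl4, a neuronal RNA-binding protein, at -0.19 ± 0.03 and neuronal tubulin Tubb3 at -0.16 ± 0.03. Among subtype markers, 2 of 6 IB, 4 of 10 IC and 1 of 10 IA markers were lower, with the semaphorin Sema3e (-0.46 ± 0.04, IB list) and the matrix gene Hmcn1 (-0.39 ± 0.09, IC list) falling most after Ttn. Without mouse 2, Hmcn1 was at -0.26 (adjusted p = 0.147). The protocadherin gene Pcdh9, of the IA list, was higher (0.80 ± 0.11). Of the 8 type II markers, 3 were tested and all 3 were higher, with a median of 0.29, but none was called by DESeq2, or by edgeR with depth strata, without pairing by mouse or without mouse 1, 3 or 4. All 3 stayed above 0 in those fits. The 3 were Gata3, which is also on the pan-neuronal list, Dupd1 and Myl1. In mouse 2, Dupd1 and Myl1 were at -0.06 and -0.12. Prph, Th, Calca and Ano2 of the type II list were not tested. Both sides hold the same number of cells of each subtype, but not the same share of UMIs: IA gave 34.6 ± 3.35% of the UMIs of IEG-low and 37.9 ± 1.76% of those of IEG-high cells, and IC gave 38.3 ± 1.69% and 35.4 ± 1.12% (mean ± SD, n = 4 mice). When sides were compared within a subtype by edgeR, 2 of the 10 IC markers were lower within IB and none within IA or IC. In IB and in IA 1 IC marker each was higher, and the medians were -0.14, 0.11 and -0.07 in IB, IA and IC. Lypd1, of the IC list, was higher within IB (0.61 ± 0.08) and did not pass within IA (-0.0092 ± 0.09) or IC (-0.05 ± 0.03). Its difference between subtypes had an edgeR adjusted p of 1.4e-07. Sema3e was lower within IA (-0.58 ± 0.07), IB (-0.42 ± 0.06) and IC (-0.41 ± 0.08). Ttn was lower within IB (-0.76 ± 0.11) and at -0.11 ± 0.40 in IA and -0.05 ± 0.30 in IC. Hmcn1 passed in no subtype, with -0.28 ± 0.11 in IC (adjusted p = 0.128). Slc17a6 was lower within IB (-0.39 ± 0.08) and did not pass in IA (0.24 ± 0.17) or IC (-0.14 ± 0.06). Of the 15 pan-neuronal markers 6, 3 and 3 were lower within IA, IB and IC, and 1, 1 and 0 higher. Of 10 sodium and HCN channel genes 6, 5 and 3 were lower and 0 higher. Glutamate receptor genes had 3, 2 and 0 of 8 lower, with 1 higher in IA. Calcium channel genes had 0 of 11 lower or higher in any subtype. Synaptic vesicle genes had 6, 3 and 1 of 28 lower, with 1 higher in IA. Potassium channel genes had 3, 3 and 3 of 19 lower, and 1, 2 and 1 higher. Among all genes 2.7%, 1.38% and 1.41% were lower.

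Of all lists, the mitochondrial genome had the largest share of members that fell. Of 13 genes, 12 were lower and 0 higher, and the median log2 difference was -0.28. Their sum was 101961, 95134, 101852 and 105108 CPM in IEG-low cells of mice 1 to 4 and 84812, 79027, 86262 and 89878 CPM in IEG-high cells, so no mouse overlapped. mt-Nd1, a complex I subunit, differed by -0.42 ± 0.02, and mt-Cytb, of complex III, by -0.30 ± 0.02. Within depth strata 10 of the 13 were lower with a median of -0.16, and without the glia-rich cells 12 were lower with a median of -0.39. Of 76 nuclear genes of oxidative phosphorylation, 5 were higher and 6 lower, with a median of -0.0087, shares near the 6.93% and 4.76% of all genes. This count depended on the split. With depth strata 1 was higher and 33 lower, and with strata of mitochondrial share 0 were higher and 51 lower (edgeR, median -0.088). In contrast, without the glia-rich cells 25 were higher and 0 lower, and with each cell weighted equally 37 were higher and 0 lower. It also depended on the subtype: 9 were higher and 2 lower within IA, 1 and 1 within IB, and 0 and 14 within IC. Among all genes 1.41% were lower within IC. The difference between subtypes was called for 1 of the 76, and 29 were at an unadjusted p of 0.05 (edgeR). Cytosolic ribosomal protein genes shifted upward by a small amount, with 66 of 79 higher, 0 lower and a median of 0.11. Rpl3 differed by 0.23 ± 0.02, from 510 to 593 CPM in IEG-low to 594 to 723 CPM in IEG-high cells. The ribosomal count was 41 with DESeq2, 27 with thinned cells and 1 without pairing by mouse. Within IA, IB and IC it was 54, 48 and 6 of 79, with 0 lower in each.

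Glial markers rose with the immediate early genes. Of 12 satellite glia markers 10 were higher and 0 lower, with a median of 0.56, and of 11 Schwann cell markers tested 9 were higher and 0 lower, with a median of 0.40. Sox2, a factor of satellite glia and progenitors, stood at 33.4, 39.9, 35.2 and 35.2 CPM in IEG-low cells and 70.0, 74.0, 67.1 and 63.3 CPM in IEG-high cells, a log2 difference of 0.93 ± 0.07 without overlap. The compact myelin gene Pmp22 differed by 0.43 ± 0.02. When the 25% of type I cells with the largest glial marker share was left out, 8 of 12 and 7 of 11 markers were still higher, with medians of 0.57 and 0.33. In that same split the left-out genes differed by 0.96 for Fos, 0.96 for Egr1, 0.88 for Fosb, 0.79 for Junb and 0.64 for Ier2 as log2 differences. The part of glial RNA in the immediate early differences was not tested beyond these values. Fibroblast markers had 3 of 11 higher, including Igfbp6 (0.41 ± 0.02) and Col1a2 (0.67 ± 0.09), endothelial and pericyte markers 2 of 10, and hair and supporting cell markers 1 of 8, with 0 lower in each. Among all genes tested 6.93% were higher and 4.76% lower. The 1 hair and supporting cell marker was Sox2, which is also on the satellite glia list and was counted there. Immune markers had 1 of 10 lower, Cd74 (-0.28 ± 0.10), which lost the call without mouse 2 (adjusted p = 0.609) or mouse 4 (0.155), and erythrocyte markers 0 of 5 in either direction by edgeR, by DESeq2 and at an unadjusted p of 0.05. With splits at the median, however, 3 of the 5 erythrocyte markers were higher. Subtypes differed too: of 4 tested, 1 was higher within IA and 2 were lower within IC, and 2 were called as differing between subtypes.

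**Figure D4:**
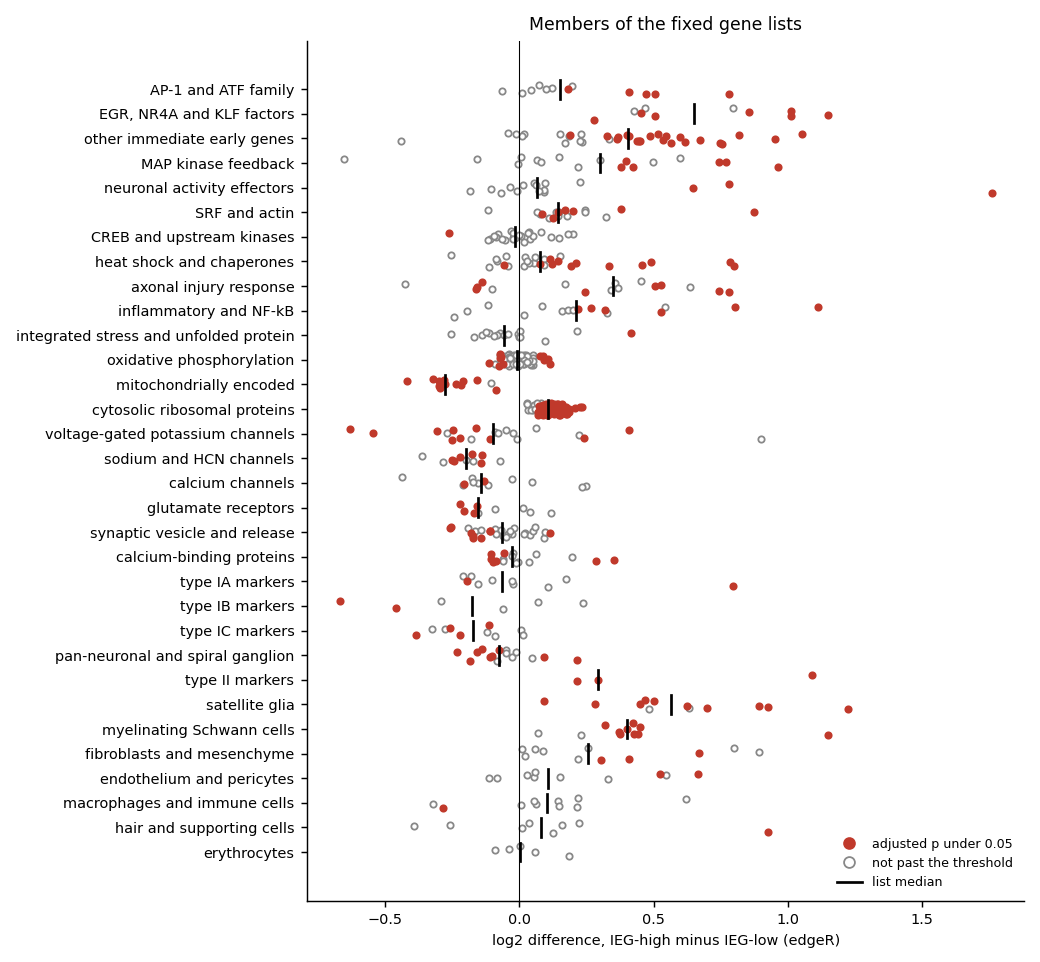
Log2 difference between IEG-high and IEG-low type I cells (edgeR estimate) for the tested members of each gene list, filled where the adjusted p was under 0.05, with the list median as a bar. The immediate early and glial lists lie to the right of 0, and the mitochondrially encoded genes (median -0.28) and sodium and HCN channel genes (median -0.20) to the left.

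Finally, the same contrast was made within subtypes IA, IB and IC, using 24 sums of mouse, subtype and side. Within IA 772 of 11053 genes passed (6.98%), within IB 459 (4.15%) and within IC 455 (4.12%). A test of the difference between subtypes called 33 genes (0.299%), 882 passed an unadjusted p of 0.05, and 16 were called without mouse 3. None of the members tested in the AP-1 and ATF, EGR, NR4A and KLF, MAP kinase feedback or neuronal activity lists was called by edgeR in that test, with 1, 2, 1 and 3 of them at an unadjusted p of 0.05, and among the 34 further immediate early genes only Id2 was, at 0.71 in IA, 0.22 in IB and 0.34 in IC. Egr2 differed by 1.13 ± 0.11, 1.13 ± 0.12 and 1.17 ± 0.10 in IA, IB and IC, and Jun by 0.86 ± 0.05, 0.75 ± 0.05 and 0.75 ± 0.04.

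Of the 33 genes called, 11 were among the 13 genes of the mitochondrial genome. Its share of all UMIs went from 12.4 ± 1.14% to 9.50 ± 0.72% in IA, from 10.2 ± 0.36% to 8.59 ± 0.45% in IB and from 7.97 ± 0.27% to 7.37 ± 0.32% in IC (mean ± SD, n = 4 mice). The fall was thus ordered IA, IB, IC, as was the share in IEG-low cells itself. Within IA 11 of the 13 were lower beside 2.7% of all genes, within IB 10 beside 1.38% and within IC 7 beside 1.41%. mt-Co3, of complex IV, differed by -0.45 ± 0.03, -0.26 ± 0.03 and -0.14 ± 0.03 in the 3 subtypes, and mt-Nd1 by -0.58 ± 0.03, -0.42 ± 0.03 and -0.27 ± 0.03. Tshz2, a zinc finger factor, fell from 490 ± 49.9 to 331 ± 42.6 CPM in IA (-0.59 ± 0.05) and by less in IB (-0.29 ± 0.05), and was at -0.08 ± 0.05 in IC. Ttr, the transthyretin gene, had the smallest p, but 85.2% of its UMIs in IB came from 1 cell and it was higher in only 2 of 4 mice there, so its value describes that cell. With depth strata the number of genes whose difference varied with subtype was 12, with sides taken within strata of mitochondrial share it was 10, and with cells thinned to equal depth or without pairing the sides by mouse it was 0.

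**Figure D5:**
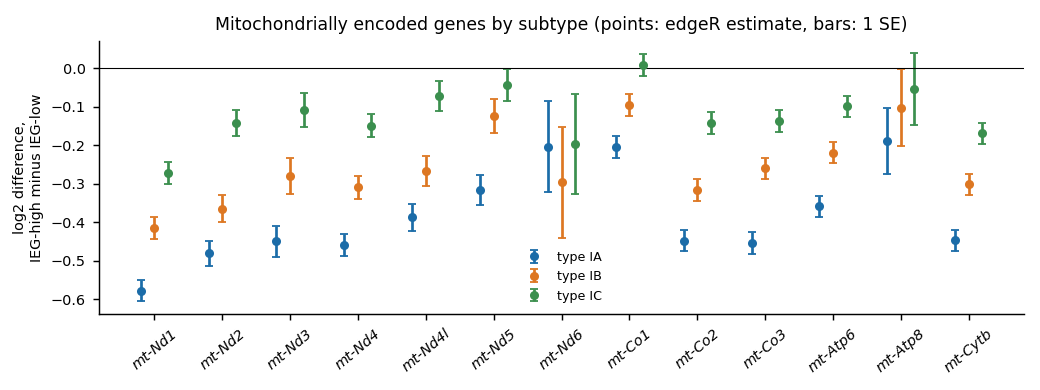
Log2 difference between IEG-high and IEG-low cells for the 13 genes of the mitochondrial genome within subtypes IA, IB and IC (points edgeR estimates, bars 1 SE). Most genes lie lowest in IA and nearest 0 in IC, for example mt-Nd1 at -0.58, -0.42 and -0.27.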

How the data were processed

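Single-cell UMI counts per gene and cell, deposited by the authors as 1 table per mouse, were used with the authors' cell labels. Per the submitters' processing notes, Cell Ranger 2.0.1, Seurat 1.4 and build mm10 were used. How the authors filtered cells or doublets is not stated in these sources. No cell was removed and no doublet caller was run. Of 6713 cells, 52 (48 type I) carried a barcode seen in another library. The members and gene lists were chosen with earlier results of these data known.

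UMIs were summed per mouse and side and tested with edgeR 4.0.16 (filterByExpr, TMM, quasi-likelihood, mouse as block, two-sided, Benjamini-Hochberg) in R 4.3.3, leaving out the 5 ordering genes. Same-mouse sums deviated together (correlations 0.468, 0.494, 0.521 and 0.614 over 8692 genes), being cells of the same animal. Residual degrees of freedom were 3, the prior 215 and the biological coefficient of variation 0.0162. On simulated counts, 98% of 1.5-fold and 100% of 2-fold changes were recovered for the comparison of sides, with 4.3% false calls. The changed genes were taken from well-counted genes only, and every gene was given the same spread. These rates therefore do not cover sparse genes such as Npas4, Klf5 and Pdk4, or genes with a larger spread. CPM are the UMIs of a gene scaled to 1000000 UMIs of a sum, and mean ± SD is over mice. Named genes were the 12 highest and 12 lowest called differences with at least 100 UMIs and the same direction in every mouse, members of the 5 immediate early lists, up to 4 called members of other lists and 6 subtype genes. Some genes that this rule names are left out of the text. Alternatives were no block, DESeq2 1.42.0, limma 3.58.1 with equal weight per cell, no low-count filter, depth strata, cells thinned to 4843 UMIs (610 type I cells left out), cells below the top glial share (1522 left out), splits at the median, each mouse left out, and, added after seeing the data, 4 more splits. The 4 were the middle cells, strata of mitochondrial share, depth strata without glia-rich cells, and cells without shared barcodes. Coordinates are GRCm38 (GENCODE M21).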

Additional observations from a re-analysis of the deposited data

Results flagged for a closer look

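In 11 of 140 genes tested for it, the difference between sides in 1 mouse lay apart from the other 3 by Dixon's 95% criterion (its gap to the nearest mouse over the range of all), where chance gives about 1 in 20. The gap over range was 0.983 for Jun and 0.93 for Hspa1a, both lowest in mouse 1 with log2 differences of 0.69 and 0.52. Dusp6 (0.85) and Cnp (0.832) were highest in mouse 4, at 1.55 and 0.60. Acot1 (0.903) was lowest in mouse 3, at 0.60, and Actb (0.862) highest there, at 0.33. Mouse 2 stood apart in the other 5 genes, Actg1 (0.835), Cryab (0.866), mt-Cytb (0.856), Dupd1 (0.906) and Myl1 (0.841). Of those, Dupd1 and Myl1, type II markers, were at -0.06 and -0.12 in mouse 2 and above 0.44 in the other mice.

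The difference between sides varied with subtype (edgeR F test over the side by subtype terms, adjusted p) for Ttr (7.02e-11), mt-Co3 (5.34e-09), mt-Nd1 (3.54e-08), mt-Co2 (4.03e-08), mt-Nd4 (4.03e-08) and Tshz2 (7.02e-08). In IC, 42.1% of Ttr UMIs came from 1 cell.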

How the results depend on the processing

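The 1458 genes called between sides were 348 with no replicate block (pairing by mouse), of which 85.9% were higher against 59.3% with it, 413 with DESeq2 (68.8% higher), 533 with thinned cells (69.6% higher), 601 with depth strata without glia-rich cells, and 114 in the middle cells (72.8% higher). Leaving out 1 mouse gave 997 to 1205. The 33 genes varying with subtype were 0 with no replicate block (396 at an unadjusted p under 0.05) and 0 with thinned cells (420 unadjusted), 12 with depth strata, 20 with splits at the median, 6 with depth strata without glia-rich cells, 10 with mitochondrial share strata, 4 in the middle cells, and 16 to 44 without 1 mouse, 16 being without mouse 3. For the left-out genes, Fosb (0.15) and Ier2 (0.11) did not pass in the middle cells of their own splits, and without 1 mouse the log2 differences were 1.04 to 1.13 for Fos, 0.91 to 1.01 for Fosb, 0.81 to 0.92 for Junb, 1.00 to 1.18 for Egr1 and 0.65 to 0.80 for Ier2. The causes were not tested. Signs turned in the middle cells for Msx2 (-0.20), Tbc1d32 (0.052), Kcnd2 (0.0049), Sfi1 (0.053), Zfp36l2 (-0.0094), Csrnp1 (-0.17), Plk2 (-0.10), Tob1 (-0.035), Arid5a (-0.013), Errfi1 (-0.0094), Tagln (-0.36), Kcna6 (-0.065), B3gat1 (0.045), Lypd1 (0.027), Gata3 (-0.092) and Myl1 (-0.052), with mitochondrial share strata for Atp5g2 (-0.00044) and Myl1 (-0.013), and with thinned cells for Lhx1 (0.19). Of 135 named genes past the threshold, 73 kept it and 61 fell below it with no replicate block, 82 and 47 did with thinned cells, 34 and 84 in the middle cells, and 77 and 25 with DESeq2, where 33 had no adjusted p. Rare genes such as Npas4 and Klf5 are limited by depth.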
